A study of Mus musculus with 2 samples.

Results

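Tubulins are the building blocks of microtubules, and stathmin is a small protein that binds them. Here 10 of their genes were followed through single bone marrow cells sorted by cell cycle reporter: 4 alpha-tubulins (Tuba1a, Tuba1b, Tuba1c and Tuba4a), 4 beta-tubulins (Tubb5, Tubb2a, Tubb4b and Tubb6), gamma-tubulin (Tubg1) and stathmin (Stmn1). They were chosen by name, and all 10 were found among the 53273 gene rows that matched the annotation. The cells came from C57BL/6 mice aged 8 weeks that carry the Fucci reporter, and the series concerns blood stem cells at rest. Fucci cells make a green protein, mAG, joined to part of geminin, which accumulates in S, G2 and M phases, and an orange protein, mKO2, joined to part of Cdt1, which accumulates in G0 and G1. There were 4 gates of 48 cells each: mAG+, mKO2neg, mKO2low and mKO2high. The mAG+ and mKO2neg cells shared 1 library and the mKO2low and mKO2high cells another. All groups therefore share the strain, age, tissue and reporter and differ in the fluorescence gate. The labels used here do not name the promoter that drives the reporter, the number of mice or a surface marker gate. Each gate is accordingly 1 sample, no test was possible, and the intervals below cover counting error alone.

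Microtubules are hollow polymers of alpha- and beta-tubulin pairs that grow and shrink at their ends. They carry cargo in resting cells and are rebuilt into the spindle when a cell divides. Gamma-tubulin sits in ring complexes that start new microtubules, and stathmin holds free tubulin pairs and promotes shrinkage until mitotic kinases phosphorylate it. Blood stem cells rest for long periods and divide rarely, and the reporter gates separate cells by their place in the cycle.

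The gene labels of the deposited tables are displaced by 1 gene, so each gene was read from the row of the gene just before it in annotation order. Read as labelled, 85 ribosomal protein genes held 12856 counts, 0.183% of the total, and read with the displacement they held 1418720 counts, 20.2%. The same held on each chromosome that carries 1 of the 10 genes. Actb, for cytoplasmic actin, had 25599 counts when displaced and 136 as labelled, and B2m, for the light chain of class I molecules, had 56396 and 0. Among the genes described here, Tubb5 had 11427 counts when displaced and 161 as labelled, Tuba1b 10618 and 165, Stmn1 10461 and 0, and Tubb4b 4471 and 0. Tubb6 went the other way, with 50 counts when displaced and 327 as labelled. With the displacement, the row labelled Tubb6 is read for the next gene in annotation order.

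The Tuba1 genes lie together on chromosome 15 (GRCm38): Tuba1b (ENSMUSG00000023004.8) at chr15:98931425-98934565 and Tuba1a (ENSMUSG00000072235.6) at chr15:98949837-98953703 on the minus strand, and Tuba1c (ENSMUSG00000043091.9) at chr15:99029891-99038110 on the plus strand. Tuba4a (ENSMUSG00000026202.13) lies at chr1:75214228-75219865 on the minus strand. The beta-tubulin genes are scattered, with Tubb5 (ENSMUSG00000001525.10) at chr17:35833921-35838306, Tubb2a (ENSMUSG00000058672.7) at chr13:34074274-34078007 and Tubb4b (ENSMUSG00000036752.4) at chr2:25222160-25224702, all on the minus strand, whereas Tubb6 is ENSMUSG00000001473.7. Tubg1 (ENSMUSG00000035198.9) lies at chr11:101119938-101126419 and Stmn1 (ENSMUSG00000028832.11) at chr4:134468320-134473843, both on the plus strand.

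The promoters of 4 of these genes are shown because their transcripts were abundant, differed between mAG+ and the other gates and, within dividing cells, went different ways. Each is the RefSeq window of 300 bases on the GRCm38.p6 assembly, from 250 bases before the annotated start to 50 after it, on the gene's own strand. Tubb4b is chr2:25224653-25224952 (minus strand), Tuba1c chr15:99029641-99029940 (plus strand), Tubb5 chr17:35838252-35838551 (minus strand) and Tuba1b chr15:98934341-98934640 (minus strand). Capitals mark a CCAAT box, searched as CCAAT on both strands, and a cell cycle homology region, searched as TTTGAA or TTTAAA on both strands. Both elements are known from promoters of genes used in G2 and M phases, and the 2 searches do not overlap each other in these windows.
Tubb4b: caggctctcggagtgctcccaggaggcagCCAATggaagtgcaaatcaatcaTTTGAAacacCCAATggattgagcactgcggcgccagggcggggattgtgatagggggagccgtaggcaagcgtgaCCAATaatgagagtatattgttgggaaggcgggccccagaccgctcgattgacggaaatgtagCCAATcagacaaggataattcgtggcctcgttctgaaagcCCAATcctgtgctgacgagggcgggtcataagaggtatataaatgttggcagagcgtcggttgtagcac
Tuba1c: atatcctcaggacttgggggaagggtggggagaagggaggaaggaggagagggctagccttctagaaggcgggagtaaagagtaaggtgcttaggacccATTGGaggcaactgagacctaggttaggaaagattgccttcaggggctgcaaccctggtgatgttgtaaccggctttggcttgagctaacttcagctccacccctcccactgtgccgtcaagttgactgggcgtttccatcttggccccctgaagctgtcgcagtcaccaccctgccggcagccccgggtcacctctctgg
Tubb5: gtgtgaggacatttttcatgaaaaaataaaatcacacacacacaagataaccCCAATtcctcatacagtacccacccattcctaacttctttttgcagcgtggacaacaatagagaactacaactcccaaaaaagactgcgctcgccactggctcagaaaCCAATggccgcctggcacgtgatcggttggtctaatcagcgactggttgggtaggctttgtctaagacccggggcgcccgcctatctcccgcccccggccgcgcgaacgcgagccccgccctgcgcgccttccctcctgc
Tuba1b: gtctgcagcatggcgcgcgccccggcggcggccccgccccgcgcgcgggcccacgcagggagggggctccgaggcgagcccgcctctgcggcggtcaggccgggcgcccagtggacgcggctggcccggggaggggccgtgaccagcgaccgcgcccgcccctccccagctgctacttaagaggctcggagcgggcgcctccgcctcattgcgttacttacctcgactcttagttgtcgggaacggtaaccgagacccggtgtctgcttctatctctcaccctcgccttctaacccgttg

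The Tubb4b window held 5 CCAAT boxes, with first bases at 221, 188, 122, 59 and 19 bases before the start, and 1 TTTGAA at 198 bases before it. Of 32851 RefSeq promoter windows of the same length, 37.4% held at least 1 CCAAT box, and 89 of them, 0.271%, held at least 5. A cell cycle homology region stood in 27.6% of windows, and both elements stood together in 10.7%. Tubb5 held 2 CCAAT boxes, Tuba1c 1 on the opposite strand (ATTGG), and Tuba1b neither element. Among windows not shown, that of Tuba4a held 1 TTTAAA at 46 bases before the start. Tuba1a held 1 CCAAT box at 176 bases before it, and Tubb2a neither element. Of the 10 genes, 7 had a window in the table. Stmn1, as abundant and as different between gates, was not among them, and no promoter of it is shown. These matches describe letters and say nothing about which factors bind there.

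The first question was whether tubulin transcripts differ between cells that show the S, G2 and M marker and cells of the mKO2neg gate. The label of that gate names the orange marker alone and does not say whether its cells also lacked mAG. In mAG+ cells the alpha-tubulins Tuba1b and Tuba1c, the beta-tubulins Tubb5 and Tubb4b, and Stmn1 were 2.87-fold to 6.33-fold higher than in mKO2neg cells. These are gate-sum CPM values, the counts of a gene over all cells of a gate scaled to the gate's total. With Tubb6, 6 of the 10 genes were at least 2-fold higher and 0 were lower, where 21.2% of the 12115 genes with at least 10 counts over both gates were at least 2-fold higher, 14.6% at least 2-fold lower and 35.8% either. The median log2 ratio was 1.58 over the 10 genes and 0.06 over all genes tested. Leaving out each gate's deepest cell, the genes higher were 8 and the median 2.54, where 21.8% of all genes tested were at least 2-fold higher and their median was 0.06.

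One mKO2neg cell bears on every value of that gate. It held 210516 counts, 13.1% of the gate's total, and had counts for 15 of 20 genes known to be used in G2 and M phases, at 7154 CPM in sum, where the median of the other mKO2neg cells was 543 CPM. Of 42 other mKO2neg cells with at least 5000 counts, 2 had more, at 8259 and 18056 CPM. The 5 abundant genes described below took 0.452% and 0.269% of the counts of these 2 cells. The lowest mAG+ cell had 0.455%, so the first was nearly level with it. The deepest cell alone gave 58.6% of the mKO2neg counts of Tuba1b, 54.1% of Tubb5, 50.3% of Stmn1 and 79.7% of Tubg1. Levels of the 10 genes in mKO2neg cells are therefore set beside those without it.

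Tuba1b codes for an alpha-tubulin that dividing cells use widely. It stood at 2731 CPM in mAG+ cells (exact Poisson 95% interval 2670 to 2793), against 807 in mKO2neg cells, 743 in mKO2low and 463 in mKO2high (764 to 852, 702 to 785 and 420 to 508). Without its deepest cell the mKO2neg gate stood at 385 CPM (353 to 419), below mKO2low. The mAG+ gate lay well above the other 3, and mKO2neg and mKO2low had overlapping intervals that came apart once that cell was left out. Among cells with at least 5000 counts, the mAG+ cells ranged from 595 to 5006 CPM around a median of 2714, against 23.0 to 3610 around 225 in mKO2neg cells, 31.2 to 3636 around 438 in mKO2low and 0 to 1495 around 397 in mKO2high. Against mKO2neg, the mAG+ log2 ratio was 1.76 (exact conditional binomial 95% interval 1.67 to 1.84), and 2.85 without the deepest cells.

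Tuba1c codes for a close relative of the Tuba1b protein and showed the widest gap of the abundant genes. It reached 718 CPM in mAG+ cells (687 to 750), against 113 in mKO2neg cells, 93.4 in mKO2low and 66.4 in mKO2high (97.3 to 131, 79.4 to 109 and 50.9 to 85.1). Neighbouring gates among the lower 3 had overlapping intervals, and mKO2neg stood at 75.8 CPM (62.1 to 91.7) without its deepest cell. The log2 ratio of mAG+ against mKO2neg was 2.66 (2.45 to 2.89), and 3.26 without the deepest cells. A count was found in 44 of 48 mAG+ cells, against 27, 16 and 20 of 48 in the mKO2neg, mKO2low and mKO2high gates. With each cell thinned to 5000 counts, which left out 3, 5, 0 and 9 shallower cells of the mAG+, mKO2neg, mKO2low and mKO2high gates, it was found in 39 of 45 mAG+ cells, 16 of 43 mKO2neg, 9 of 48 mKO2low and 12 of 39 mKO2high cells. The share was thus 86.7% in mAG+ (exact Clopper-Pearson 95% interval 73.2% to 94.9%), against 37.2%, 18.8% and 30.8% in the mKO2neg, mKO2low and mKO2high gates.

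Tuba4a, an alpha-tubulin made with the terminal tyrosine already absent, was the abundant gene with the flattest profile. It had 255 CPM in mAG+ cells, 194 in mKO2neg, 232 in mKO2low and 195 in mKO2high, with intervals of 237 to 275, 173 to 217, 210 to 256 and 168 to 225. Set against mKO2neg, mAG+ gave a log2 ratio of 0.40 (0.20 to 0.59), and 1.25 without the deepest cells, since 1 cell held 52.2% of the mKO2neg counts and the gate fell to 107 CPM without it. Per cell, the medians were 240 CPM in mAG+ cells, 28.1 in mKO2neg, 214 in mKO2low and 166 in mKO2high, so the typical mKO2neg cell stood lowest. Tuba4a overlaps Stk16, a kinase gene on the other strand, by 1379 bases, and Stk16 had 883 counts. Whether counting used strand is not given in the sources used here, so reads of the overlap cannot be told apart.

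Tuba1a, an alpha-tubulin best known from developing neurons, was scarce. It had 29.0, 23.6, 19.4 and 13.9 CPM in mAG+, mKO2neg, mKO2low and mKO2high cells, from 81, 38, 33 and 13 counts, and the interval of each gate overlapped that of the next. In mKO2high, 10 of the 13 counts came from 1 cell, and mKO2neg stood at 20.7 CPM without its deepest cell. Its log2 ratio of mAG+ against mKO2neg was 0.29 (-0.28 to 0.89), an interval that holds 0.

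The beta-tubulin Tubb5, the main beta-tubulin of many dividing cells, stood at 2963 CPM in mAG+ cells (2900 to 3028), against 957 in mKO2neg cells, 610 in mKO2low and 618 in mKO2high (910 to 1006, 573 to 648 and 568 to 670). The mKO2low and mKO2high intervals overlapped, and mKO2neg stood above them only with its deepest cell, at 506 CPM without it (469 to 544). Its mAG+ against mKO2neg log2 ratio was 1.63 (1.55 to 1.71), and 2.56 without the deepest cells. All 45 mAG+ cells with at least 5000 counts had at least 1537 CPM, while the medians were 386 in mKO2neg, 492 in mKO2low and 360 in mKO2high cells. One shallow mAG+ cell stood apart at 21669 CPM.

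Tubb4b, a beta-tubulin of many tissues that also serves in cilia, had 1132 CPM in mAG+ cells (1093 to 1173), against 352 in mKO2neg cells, 266 in mKO2low and 312 in mKO2high (323 to 382, 242 to 292 and 277 to 349). The mKO2neg value was 200.3 CPM without the deepest cell, the lowest of the gates. For mAG+ against mKO2neg the log2 ratio was 1.68 (1.56 to 1.82), and 2.52 without the deepest cells. With cells thinned to 5000 counts, 44 of 45 mAG+ cells had a count, against 22 of 43 mKO2neg, 27 of 48 mKO2low and 23 of 39 mKO2high cells.

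Tubb2a and Tubb6 were near the limit of detection. Tubb2a, a beta-tubulin of neurons and other tissues, had 32, 20, 11 and 16 counts in mAG+, mKO2neg, mKO2low and mKO2high cells, which is 11.5, 12.4, 6.46 and 17.1 CPM. The mKO2neg value of Tubb2a was 9.30 CPM without the deepest cell. Its log2 ratio of mAG+ against mKO2neg was -0.11 (-0.97 to 0.77). Tubb6, a beta-tubulin of many tissues, had 25, 1, 24 and 0 counts in the mAG+, mKO2neg, mKO2low and mKO2high gates, from 3, 1, 3 and 0 cells, and the deepest mKO2neg cell had none of them. One cell gave 72.0% of the mAG+ counts and 1 cell gave 62.5% of the mKO2low counts. The log2 ratio of mAG+ against mKO2neg was 3.13 with an interval of 1.24 to 9.21, so the 2-fold call of Tubb6 rests on 3 mAG+ cells.

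Gamma-tubulin, from Tubg1, stood at 68.8 CPM in mAG+ cells (59.4 to 79.2), 49.1 in mKO2neg cells (38.9 to 61.2), 25.2 in mKO2low (18.3 to 34.0) and 18.2 in mKO2high (10.6 to 29.1). Without its deepest cell mKO2neg stood at 11.4 CPM (6.54 to 18.6). Tubg1 was found in 22 of 48 mAG+ cells, against 7, 7 and 6 of 48 in the mKO2neg, mKO2low and mKO2high gates. The log2 ratio of mAG+ against mKO2neg was 0.48 (0.10 to 0.88) with all cells and 2.63 (1.95 to 3.52) without the deepest ones, because a single cell held 63 of the 79 mKO2neg counts. Tubg1 was thus short of 2-fold higher in mAG+ cells with that cell and past it without it. With thinned cells the log2 ratio was 0.94 (-0.57 to 2.95), an interval that holds 0.

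Stmn1 followed the abundant tubulins closely. It had 2704 CPM in mAG+ cells (2644 to 2766), against 942 in mKO2neg cells, 596 in mKO2low and 408 in mKO2high (896 to 991, 560 to 634 and 368 to 451), and no 2 of these intervals overlapped. Without its deepest cell mKO2neg stood at 539 CPM (501 to 578), between mKO2low and mKO2high. The log2 ratio of mAG+ against mKO2neg was 1.52 (1.44 to 1.60), and 2.33 without the deepest cells. Every mAG+ cell with at least 5000 counts had at least 917 CPM, where the medians were 377 in mKO2neg, 422 in mKO2low and 344 in mKO2high cells.

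**Figure D1:**
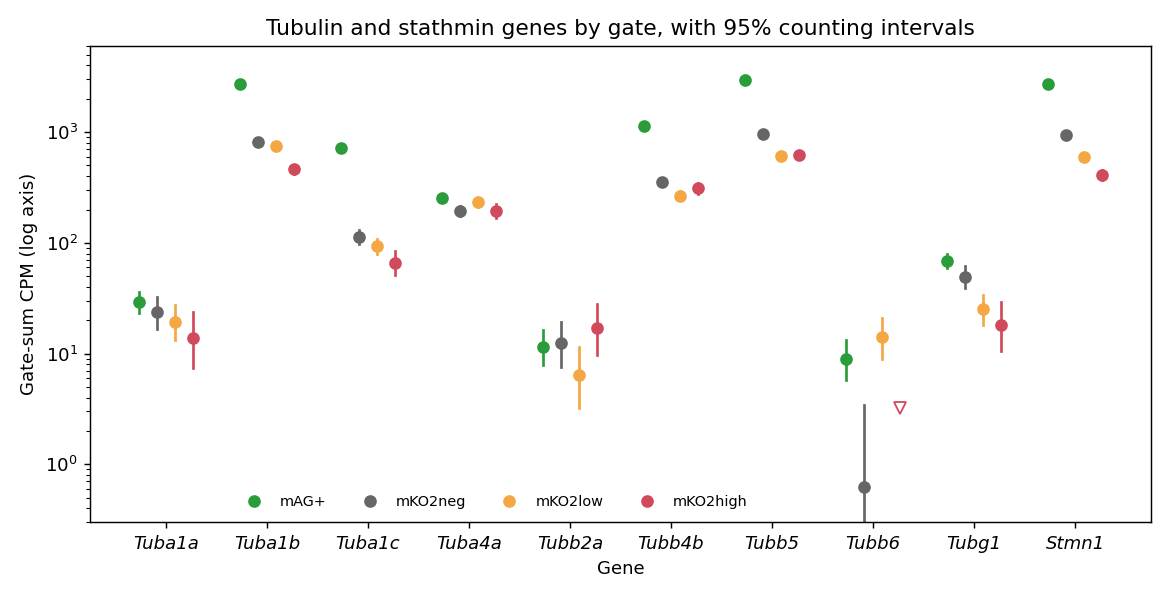
Gate-sum CPM of the 10 genes on a log axis, with 48 cells in each gate. Points are gates, bars are exact Poisson 95% intervals, and the open triangle is the limit of 3 counts (3.21 CPM) for Tubb6 in mKO2high, where it had 0 counts. The mAG+ points of Tuba1b (2731 CPM), Tuba1c (718), Tubb4b (1132), Tubb5 (2963) and Stmn1 (2704) stand above all other gates, while Tuba4a lies between 194 and 255 CPM throughout.

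The plot of levels by gate shows the split among the 10 with all cells counted. There were 5 abundant genes with a clear step at mAG+, 1 abundant gene, Tuba4a, without it, and 4 scarce genes whose intervals are wide. Against mKO2neg alone, Tuba4a was also higher in mAG+ without the deepest cells, at a log2 ratio of 1.25. The step was seen cell by cell as well. Tuba1b, Tuba1c, Tubb5, Tubb4b and Stmn1, a set picked after their values were seen, took a median share of 1.03% of the counts of an mAG+ cell, against 0.136% for mKO2neg, 0.172% for mKO2low and 0.165% for mKO2high. The lowest mAG+ cell stood at 0.455%. Of the other gates, 1 of 43 mKO2neg, 4 of 48 mKO2low and 0 of 39 mKO2high cells reached that level. Another mKO2neg cell lay just below it, at 0.452%.

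**Figure D2:**
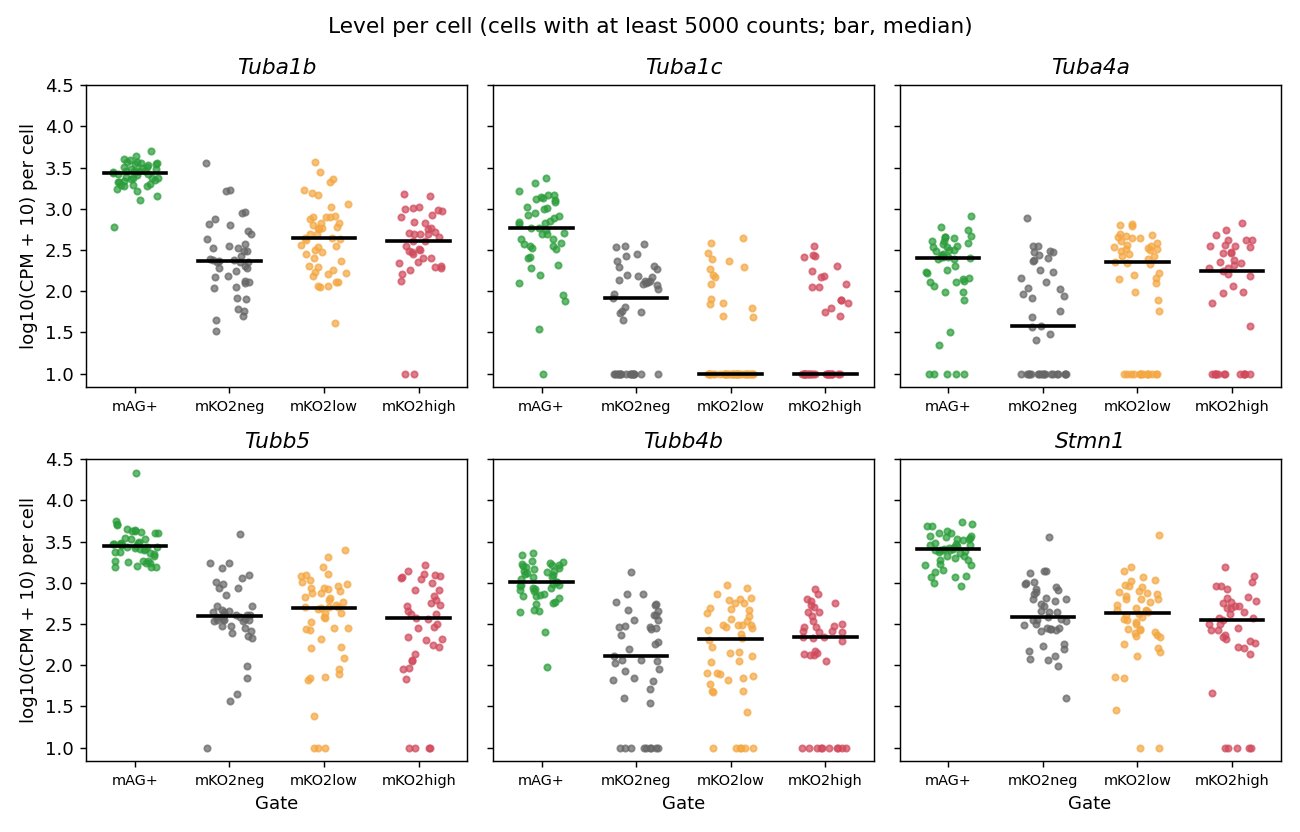
Level of 6 genes in each cell with at least 5000 counts (45 mAG+, 43 mKO2neg, 48 mKO2low and 39 mKO2high cells), as log10 of CPM plus 10, so a cell without a count lies at 1. Bars are gate medians, which for Tuba1b are 2714 CPM in mAG+ cells, 225 in mKO2neg, 438 in mKO2low and 397 in mKO2high. The mAG+ cells of Tuba1b, Tubb5 and Stmn1 form a narrow band above most other cells, and those of Tuba1c spread down to 0.

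The plot of single cells shows that the other gates hold scattered high cells, and their S phase and G2/M genes differed. The 1 mKO2neg cell at or above the lowest mAG+ cell is the deepest one, with 5995 CPM in sum of 18 genes of S phase. It held 53.3% of the gate's counts of the 5 genes. The 4 mKO2low cells had 2097 to 6111 CPM of the S phase genes, where the median of the other mKO2low cells was 596, and 657 to 3060 CPM of the G2/M genes, where the lowest mAG+ cell had 4091. They held 27.1% of the mKO2low counts of the 5 genes. Tuba1b was at 2128 to 3636 CPM in these 4 cells, within the range of mAG+ cells, and Tuba1c was at 0 to 176 CPM, where the mAG+ median was 574.

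Depth and the summed levels of some cell type marker lists differed between the gates. The mAG+ gate held 2791584 counts, against 1608630 in the mKO2neg gate, 1703263 in mKO2low and 934036 in mKO2high, with medians per cell of 45177, 24633, 26852 and 14511. With every cell thinned to 5000 counts, the log2 ratios of mAG+ against mKO2neg were 2.75 for Tuba1b, 2.76 for Tuba1c, 2.46 for Tubb5, 1.93 for Tubb4b, 2.17 for Stmn1 and 1.36 for Tuba4a. All 12 blood stem cell markers had counts in mAG+, mKO2neg and mKO2low, and 11 in mKO2high. Their summed level was 1511 CPM in mAG+ cells, 1765 in mKO2neg, 1896 in mKO2low and 2134 in mKO2high. Neutrophil and monocyte markers, with counts for 5 or 6 of 8 genes per gate, summed to 951 CPM in mAG+ cells, and to 1442, 1517 and 1477 CPM in the mKO2neg, mKO2low and mKO2high gates. Most of that sum was Lyz2, at 590 CPM in mAG+ and 1044 in mKO2neg, while Ctsg was at 0 in all gates and S100a8 stood at 117 CPM in mAG+ and 58.4 in mKO2neg. All of 6 B cell markers had counts in mAG+ cells, against 4, 3 and 3 in mKO2neg, mKO2low and mKO2high. The list summed to 175 CPM in mAG+ cells, against 76.5, 99.2 and 80.3 in those gates, and its defining Cd79a had counts in 3 mAG+ cells and 0 in the other gates. Each gate had 1 cell with counts for at least 2 of 5 B lineage markers, and without these cells every ratio of the 10 genes stayed within its interval. Markers of erythroid cells had counts for 4 of 7 genes in mAG+ and 6 of 7 in mKO2neg and summed to 135 CPM in mAG+ and 110 in mKO2neg. Platelet markers, with counts for 3 to 5 of 6 genes per gate, summed to 111 CPM in mAG+ cells, 215 in mKO2neg, 181 in mKO2low and 380 in mKO2high, with Tubb1 at 0 in all gates. The part of the neutrophil and monocyte, erythroid and platelet markers in the result was not tested.

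Within the other library, mKO2low and mKO2high cells, which differ in the amount of the G0 and G1 marker, were compared next. With all cells counted, Tuba1b and Stmn1 were somewhat higher in mKO2low cells, at 1.60-fold and 1.46-fold, and Tubb5 and Tubb4b were not. The contrast between Stmn1 and Tubb5 was not seen with thinned cells, as given below. Of the 10 genes, 1 was at least 2-fold higher (Tubb6) and 1 at least 2-fold lower (Tubb2a), where 19.6% and 15% of 10901 genes tested were, 34.5% either way. Both calls rest on few counts. Tubb6 had 24 counts in mKO2low and 0 in mKO2high, which is 4.39-fold when the 0 is set to the floor of 3 counts. The interval of its log2 ratio began at 1.72 with all cells and at -1.57 with thinned cells, with no upper end. Tubb2a had 11 counts in mKO2low and 16 in mKO2high.

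Tuba1b had 743 CPM in mKO2low cells against 463 CPM in mKO2high cells, which is 0.68 on the log2 scale (0.52 to 0.84). Stmn1 had 596 CPM in mKO2low cells against 408 CPM in mKO2high cells, which is 0.55 (0.38 to 0.72). Tuba1c, at 0.49 (0.06 to 0.94), had an interval above 0 that no longer excluded 0 without the deepest cells, at 0.18 (-0.27 to 0.64). Tubb5 had a log2 ratio of -0.02 (-0.17 to 0.13), and Tubb4b one of -0.23 (-0.44 to -0.01), both inside a 1.5-fold difference in either direction. Tuba4a was at 0.25 (-0.01 to 0.51), Tubg1 at 0.46 (-0.37 to 1.38) and Tuba1a at 0.46 (-0.49 to 1.53). Tuba1a stood at 2.31 (0.89 to 4.91) without the deepest cells, 1 of which held 10 of its 13 mKO2high counts, and it then joined Tubb6 past 2-fold, where 19.3% of all genes tested were at least 2-fold higher. The median over the 10 genes was 0.46, and over all genes tested 0.05. In the same comparison 12 of 17 S phase genes that passed the count minimum were at least 2-fold higher in mKO2low cells. So were 6 of 13 G2/M genes, while 1 G2/M gene was lower. With thinned cells the log2 ratio was 0.38 (-0.01 to 0.78) for Tubb5 and 0.34 (-0.06 to 0.76) for Stmn1. Both of these intervals hold 0. Tuba1b was then at 0.46 (0.09 to 0.84) and Tubb4b at 0.05 (-0.52 to 0.62). The 4 mKO2low cells that reached the mAG+ range held 27.1% of the mKO2low counts of Tuba1b, Tuba1c, Tubb5, Tubb4b and Stmn1. How far these cells set the ratios was not tested.

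**Figure D3:**
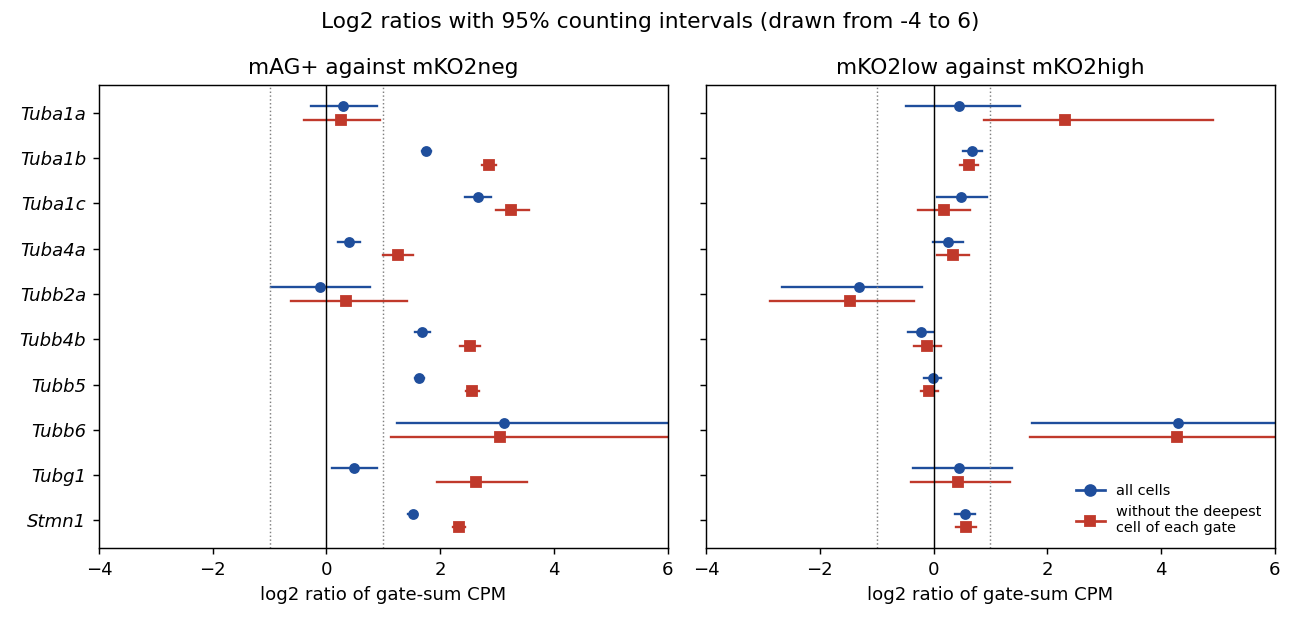
Log2 ratios of gate-sum CPM for mAG+ against mKO2neg cells (left) and mKO2low against mKO2high cells (right), with exact conditional binomial 95% intervals drawn between -4 and 6. Circles use all cells and squares leave out the deepest cell of each gate, and dotted lines mark 2-fold. On the left, Tubg1 stands at 0.48 with all cells and at 2.63 without the deepest ones. On the right, Tuba1b and Stmn1 lie at 0.68 and 0.55, and Tubb5 and Tubb4b lie at -0.02 and -0.23.

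The plot of ratios puts the 2 within-library comparisons side by side. The remaining pairs of gates cross the libraries, so that the effect of the gate cannot be told apart from that of the library. Between mKO2neg and mKO2low, 0 of the 10 genes were at least 2-fold higher in mKO2neg and 1, Tubb6, was lower, where 15.3% and 16.7% of 11375 genes were, 32% either way. The direction turned with the deepest cells for 7 of the 10 genes. Tuba1b had a log2 ratio of 0.12 (0.01 to 0.23) with them and -0.96 (-1.11 to -0.81) without, and Tubg1 had 0.94 (0.41 to 1.53) and -1.20 (-2.17 to -0.39). Tubb5 had 0.65 and -0.24, Stmn1 0.66 and -0.21, and Tubb4b 0.40 and -0.37. Tuba4a did not turn and was lower in mKO2neg both ways, at -0.26 and -1.10. The median of the 10 was 0.34 with these cells and -0.31 without them. Without them 3 of the 10 were at least 2-fold lower in mKO2neg, Tuba4a, Tubb6 and Tubg1, where 16.1% of all genes tested were. By the median cell, mKO2neg stood below mKO2low for Tuba1b, Tuba4a, Tubb5, Tubb4b and Stmn1, and above it for Tuba1c, at 72.9 CPM in mKO2neg and 0 in mKO2low cells.

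Between mAG+ and mKO2high, 8 of the 10 genes were at least 2-fold higher in mAG+ and 0 were lower, where 26.2% and 17.1% of 11849 genes were, 43.3% either way. Without the deepest cells the genes higher were again 8, where 26.3% of all genes tested were, and the ratios ran from -0.64 for Tubb2a to 4.14 for Tubb6. Tuba1c had a log2 ratio of 3.43 (3.07 to 3.82), Stmn1 of 2.73 (2.58 to 2.88), Tuba1b of 2.56 (2.42 to 2.70), Tubb5 of 2.26 (2.14 to 2.39) and Tubb4b of 1.86 (1.69 to 2.04). Tubg1, at 68.8 CPM in mAG+ and 18.2 in mKO2high, had 1.89 (1.20 to 2.73), and 0.59 (-0.89 to 2.39) with thinned cells. Tuba4a had 0.39 (0.15 to 0.63) and Tubb2a -0.56 (-1.49 to 0.39). These were the 2 genes short of 2-fold. Tuba1a, at 1.03 (0.21 to 2.03), and Tubb6, with 25 counts in mAG+ and 0 in mKO2high, were past it on few counts.

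The make-up of the tubulin transcripts differed between gates, most clearly for Tuba4a. Counts near the 3′ ends are not scaled by length, so only the change of a share between gates is read. Among Tuba1b and Tuba4a counts, Tuba4a made up 8.55% in mAG+ cells (exact Clopper-Pearson 95% interval 7.96% to 9.17%), 19.4% in mKO2neg (17.5% to 21.4%), 23.8% in mKO2low (21.8% to 25.9%) and 29.6% in mKO2high (26.1% to 33.4%). No 2 of these intervals overlapped. With thinned cells the shares were 8.47%, 19.3%, 23.5% and 24.6% in the mAG+, mKO2neg, mKO2low and mKO2high gates, so the low mAG+ share was still there and the last 2 lay close together. Leaving out the deepest cells gave 8.38% for mAG+ cells and 21.7%, 23.4% and 27.1% for mKO2neg, mKO2low and mKO2high cells.

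Tuba1c made up 20.8% of the Tuba1b and Tuba1c counts in mAG+ cells (20.02% to 21.6%), against 12.3% in mKO2neg cells, 11.2% in mKO2low and 12.6% in mKO2high (10.7% to 14.1%, 9.58% to 12.9% and 9.76% to 15.8%). The gap to mKO2neg rested on few cells. It was 20.7% in mAG+ against 16.5% in mKO2neg without the deepest cells, and 19.1% against 18.5% with thinned cells, while mKO2low stood at 8.29% and mKO2high at 11.7% when thinned. Among Tubb5 and Tubb4b counts, Tubb4b made up 27.6% in mAG+ and 26.9% in mKO2neg, with 30.4% in mKO2low and 33.5% in mKO2high. Among Stmn1 and Tubb5 counts, Stmn1 made up 47.7% in mAG+, and 49.6%, 49.4% and 39.8% in mKO2neg, mKO2low and mKO2high, and the mKO2high share was 48.3% with thinned cells.

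The close sequence of some of these genes limits how exactly their counts are split. Of the 50-base words in the last 300 bases of the transcript with the longest coding sequence, 43.0% in Tuba1c, 34.7% in Tuba1b and 21.5% in Tuba1a also occur in other genes. Of the Tuba1c words, 42.6% occur in Tuba1b. The share was 30.3% for Tubb4b, 16.3% for Tubb2a and 0 for Tuba4a, Tubb5, Tubb6, Tubg1 and Stmn1. Over the whole transcript it was 73.8% for Tuba1b, 72.9% for Tuba1a, 61.0% for Tuba1c, 50.9% for Tubb4b and 49.6% for Tubb2a. It was also 36.5% for Stmn1 and 14.1% for Tubg1, against 1.52% for Tuba4a, 0.115% for Tubb5 and 0 for Tubb6. Counts of the alpha-tubulins on chromosome 15 and of Tubb4b and Tubb2a are thus uncertain by an amount that depends on how reads with several matches were treated. That treatment is not given in the sources used here. The same limit holds for Stmn1 and Tubg1 as far as their reads lie outside the last 300 bases.

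Inside the mAG+ gate the abundant genes no longer went together. Over the 45 mAG+ cells with at least 5000 counts, Tuba1c and Tubb4b were higher in cells with more G2/M transcripts, and Stmn1, Tubb5 and Tuba1b were somewhat lower there. Spearman's rho of per-cell CPM with the summed CPM of 20 G2/M genes was 0.73 for Tuba1c and 0.56 for Tubb4b, against -0.44 for Stmn1, -0.35 for Tubb5, -0.30 for Tuba1b and 0.09 for Tuba4a. With cells thinned to 5000 counts these became 0.51, 0.23, -0.39, -0.32, -0.09 and 0.06. These cells share library and depth differences, so the values are descriptions.

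The 18 S phase genes gave the opposite picture. With their sum, rho was 0.68 for Tuba1b, 0.67 for Stmn1 and 0.41 for Tubb5, against -0.54 for Tuba1c and -0.22 for Tubb4b. After thinning it was 0.37, 0.47, 0.23, -0.41 and -0.02. Between the genes themselves, rho was 0.68 for Tuba1c with Tubb4b and 0.61 for Tuba1b with Stmn1, and -0.36 for Tuba1c with Stmn1. Tubg1, found in 22 of these cells, had a rho of 0.39 with the S phase genes and 0.52 with Tuba1b. Across the 175 cells of all gates, rho with the G2/M genes was 0.55 to 0.66 for all of Tuba1b, Tuba1c, Tubb5, Tubb4b and Stmn1, over cells whose gates also differ.

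**Figure D4:**
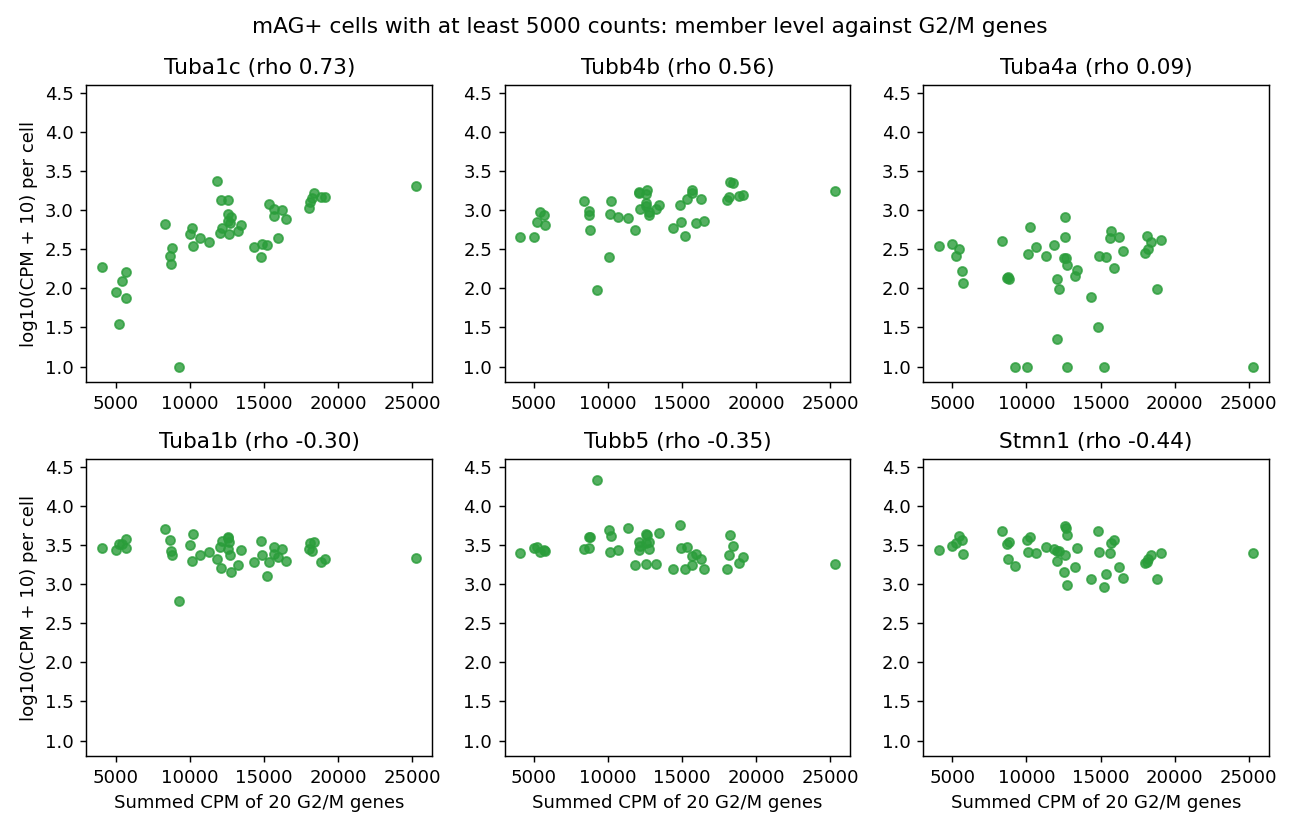
Level of 6 genes, as log10 of CPM plus 10, against the summed CPM of 20 G2/M genes in the 45 mAG+ cells with at least 5000 counts. Each point is a cell, and the Spearman rho stands above each panel. Tuba1c (0.73) and Tubb4b (0.56) climb to the right, Stmn1 (-0.44), Tubb5 (-0.35) and Tuba1b (-0.30) slope down slightly, and Tuba4a (0.09) is scattered.

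The plot of mAG+ cells also shows that Tuba1b, Tubb5 and Stmn1 were present in every such cell, while Tuba1c was at 0 in 1. The promoters of the pair that went with G2/M genes, Tubb4b and Tuba1c, are not alike in the letters searched: the first holds 5 CCAAT boxes and a cell cycle homology region, the second 1 CCAAT box. Tubb5, with 2 boxes, and Tuba1b, with none, were on the other side. Tuba4a, whose rho with the G2/M genes was 0.09, also held a cell cycle homology region.

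The genes most like each of the 10 were sought by Spearman's rho over 175 cells among 5275 genes with a count in at least 48 cells, which left out Tubb6. For Tubb5 the nearest was Top2a, the topoisomerase that untangles chromosomes, at 0.74, with Stmn1 at 0.71. Stmn1 was nearest to Top2a as well, at 0.72. Tuba1b was nearest to Cenph, of the kinetochore, at 0.70 over all gates and 0.17 within mAG+ cells. For Tuba1c the nearest was the kinetochore gene Knl1, at 0.71 over all gates and 0.16 within mAG+ cells. Cdc20, the activator of the anaphase-promoting complex, was at 0.69 with Tuba1c over all gates and 0.69 within mAG+ cells. Among the genes most like Tubb4b was Cdca8, of the chromosomal passenger complex, at 0.68 over all gates and 0.29 within mAG+ cells, and Cdc20 was at 0.66 and 0.57. Top2a had a rho of 0.05 with Tubb5 and 0.10 with Stmn1 within mAG+ cells alone. Tuba4a stood apart, nearest to Tuba1b at 0.41, and Tubg1 was nearest to Atad2, a chromatin gene, at 0.52. Tuba1a and Tubb2a had no gene above 0.36, and the nearest to Tubb2a, Cnp, was at 0.29.

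The genes that act on tubulin were compared through lists of their roles. Their counts stand beside the 21.2% of all genes tested that were at least 2-fold higher in mAG+ than in mKO2neg cells, and their medians beside the log2 median of 0.06. Values are of all cells unless said otherwise, and the deepest mKO2neg cell counts in them. Of 16 alpha- and beta-tubulin genes, 9 had at least 10 counts over both gates, 6 of them were at least 2-fold higher in mAG+ cells and 0 lower. The one that is not among the 10 described, Tuba8, had 9 counts in mAG+ and 2 in mKO2neg cells. Tubb1, the beta-tubulin of platelets, and Tubb2b, Tuba3b and Tubal3 had 0 counts in all 4 gates. That is under the floor of 3 counts, which is 1.07 CPM in mAG+ and 3.21 in mKO2high. Tubb3, the neuronal beta-tubulin, had 1 count in all.

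Genes of the mitotic spindle went with the abundant tubulins. Of 24 spindle genes, 21 were at least 2-fold higher in mAG+ than in mKO2neg cells and 0 lower, and the median over the list was 3.10 on the log2 scale. Hmmr, a spindle assembly factor, had 275 CPM in mAG+ and 1.86 in mKO2neg cells. Prc1, which bundles the central spindle, had 254 in mAG+ and 5.59 in mKO2neg. The kinesins Kif4 and Kif14 had 86.0 and 64.8 CPM in mAG+, against 2.49 and 1.86 in mKO2neg. All 20 G2/M genes were at least 2-fold higher in mAG+ cells, with a median of 3.14. With the gates' deepest cells left out, 23 spindle genes and all 20 G2/M genes were higher, with medians of 4.17 and 4.38. The mAG gate is itself set on a protein of S, G2 and M phases.

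Microtubule destabilisers, the group that holds Stmn1, had 7 of 10 genes at least 2-fold higher in mAG+ and 1 lower, with a median of 2.12. In the gates less their deepest cells, 7 were higher and 0 lower, with a median of 2.32. The depolymerising kinesins Kif2c, Kif18b and Kif18a had 89.9, 35.5 and 63.0 CPM in mAG+, against 3.73, 1.86 and 7.46 in mKO2neg. The severing enzyme relative Fignl1, also known from DNA repair, had 109 in mAG+ and 4.97 in mKO2neg. Stabilisers and plus-end proteins had 4 of 12 genes higher and 1 lower, Map7d1, at 21.1 CPM in mAG+ and 44.8 in mKO2neg cells. Their median was 0.30. Leaving out the deepest cells, 2 were higher and 0 lower, with a median of 0.20, and Map7d1 turned, at 22.6 CPM in mAG+ and 11.4 in mKO2neg. The most different was Ckap5, the microtubule polymerase, with 211 CPM in mAG+ and 28.6 in mKO2neg.

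In the gamma-tubulin ring complex list, whose complex starts microtubules, 3 of 11 genes were at least 2-fold higher in mAG+ cells and 0 lower, with a median of 0.50. The 3 were Tube1, Tubd1 and Nedd1, at log2 ratios of 3.81, 3.09 and 1.09. Tube1 and Tubd1 code for epsilon- and delta-tubulin, which are on the list but are not ring subunits. Without the deepest cells 6 of the 11 were higher and 0 lower, with a median of 1.23. Nedd1, which brings the ring to centrosomes and spindles, had 61.3 CPM in mAG+ and 28.6 in mKO2neg, and Tubgcp5, a ring subunit, 21.5 in mAG+ and 42.3 in mKO2neg. The genes that fold tubulin differed less. Of 14 subunits of the CCT chaperonin and prefoldin, which fold new tubulin and actin, 0 were at least 2-fold different in either direction, with a median of -0.14. Tcp1, of CCT, had 105 CPM in mAG+ and 74.0 in mKO2neg, and Pfdn5, of prefoldin, 485 in mAG+ and 630 in mKO2neg. Of 7 folding cofactors 1 was higher, Tbcb, with 167 CPM in mAG+ and 69.6 in mKO2neg. With the deepest cells left out, 0 CCT and prefoldin subunits and 1 folding cofactor were higher, with medians of -0.07 and 0.32.

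Tubulin-modifying enzymes had 3 of 12 genes at least 2-fold higher in mAG+ cells and 0 lower. Atat1, the acetyltransferase of alpha-tubulin, had 50.9 CPM in mAG+ and 13.7 in mKO2neg cells, with 54.6 in mKO2low and 53.5 in mKO2high. Atat1 had 31.8 CPM in mAG+ and 15.7 in mKO2neg without the deepest cells, just short of 2-fold at 0.99 on the log2 scale. Motors of interphase transport had 2 of 10 higher and 0 lower, with a median of 0.20. Dync1h1, the heavy chain of cytoplasmic dynein, had 79.5 CPM in mAG+ and 49.1 in mKO2neg. Without the deepest cells 2 modifying enzymes and 1 motor were higher, and 13 of 18 S phase genes in place of 6, where 21.8% of all genes tested were.

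**Figure D5:**
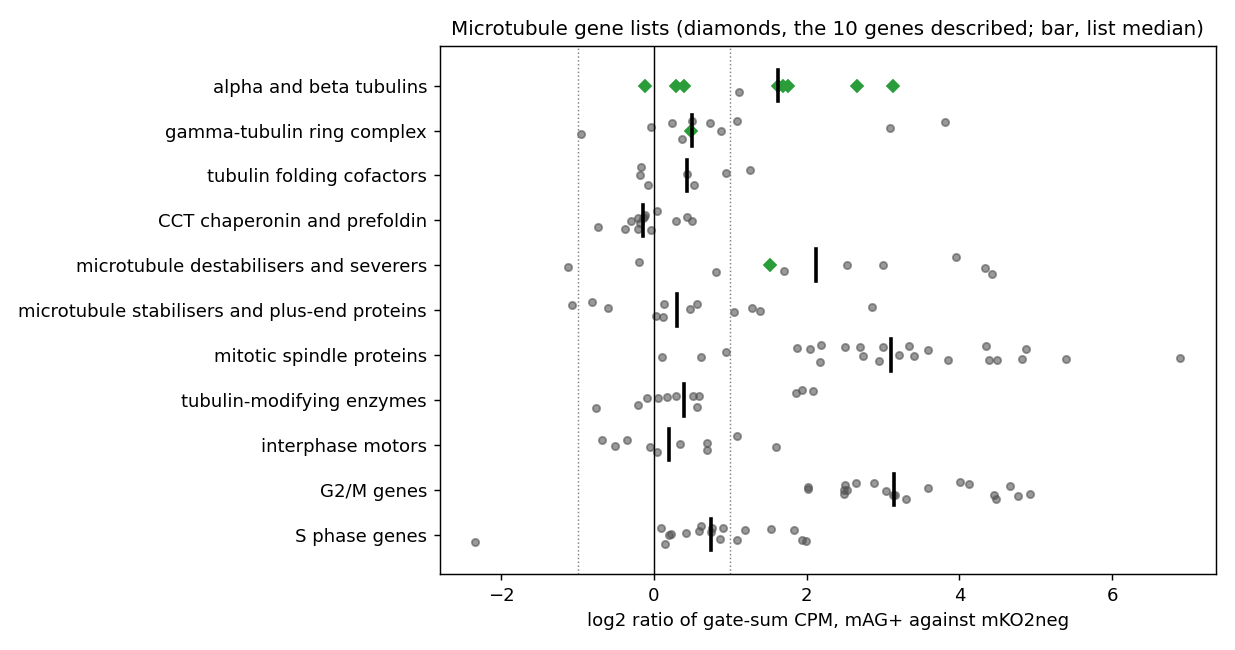
Log2 ratios of gate-sum CPM, mAG+ against mKO2neg cells, for the genes of 11 lists that had at least 10 counts over both gates. Points are genes, diamonds are the genes described one by one, bars are list medians and dotted lines mark 2-fold. Spindle genes (median 3.10) and G2/M genes (3.14) lie far to the right, destabilisers at 2.12, and the CCT chaperonin and prefoldin subunits around -0.14.

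The plot of lists places Tuba1b, Tuba1c, Tubb5, Tubb4b and Stmn1 between the spindle genes on one side and the folding, transport and modifying genes on the other. Their log2 ratios of 1.52 to 2.66 are below the spindle median of 3.10. They are above the medians of 0.50 for the ring complex list, 0.44 for the folding cofactors and 0.40 for the modifying enzymes. These genes were picked after their values were seen, so their place above those medians follows from the choice. Of the genes left out, Tubg1 was at 0.48, Tuba4a at 0.40, Tuba1a at 0.29 and Tubb2a at -0.11. Tubb6 was at 3.13 on few counts.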

How the data were processed

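Single bone marrow cells of 4 Fucci gates were profiled by a modified Smart-seq2 method with enrichment of transcript 3′ ends, per the labels' protocols. The authors deposited counts, as whole numbers and not normalized, of each gene row in the sorted cells with their gates. HISAT2, HTSeq 0.11.3, Seurat and mm10 are named per the submitters' processing notes. The sources used here do not give the annotation release, strand setting, treatment of reads with several matches or any molecular identifiers.

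Each table had 53378 rows, and 53273 matched GENCODE M21 by gene ID, while 105 rows with 0.222% of the counts did not. The deposited labels are displaced by 1 gene, and each gene was read from the row of the gene before it in GENCODE order. No cell was in both libraries. The 10 genes and the lists were chosen with earlier results of these data known.

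Counts were summed per gate and scaled to CPM with exact Poisson 95% intervals. Log2 ratios used a prior count of 1 and exact conditional binomial intervals, and shares of cells exact Clopper-Pearson intervals. Genes with at least 10 counts over both gates were compared, and 2-fold was the size called. The floor was 3 counts over a gate (1.07 CPM in mAG+ cells, 1.86 in mKO2neg, 1.76 in mKO2low, 3.21 in mKO2high). Reads without known molecular identifiers are not independent molecules, so intervals and floors cover counting error only. The sources name no animals, each gate is 1 sample, and cells were not treated as replicates. Cells were sorted or transferred singly, and doublets were not called.

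The mAG+ cells had 315 to 184672 counts each, the mKO2neg cells 1 to 210516, the mKO2low cells 7436 to 117134 and the mKO2high cells 0 to 83162. Correlations used the 175 cells with at least 5000 counts. Besides the 10 genes, the text names up to 4 genes of each list with the largest ratio of mAG+ against mKO2neg that were found in 12 or more cells of the higher gate, as a selection, and up to 5 genes most like each of the 10. Tuba8, Tube1, Map7d1 and the tubulins without counts were named after their values were seen. A few genes met by these rules are not reported here. Tested on simulated counts of 12111 genes for mAG+ against mKO2neg, 100% of the changed genes were recovered and 96.3% of intervals held the true ratio. These were Poisson gate sums with large changes set in genes of many counts, and single cells were not simulated. The test therefore checks the calculation and cannot speak to spread between cells or to small changes.

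Alternatives were edgeR 4.0.16 TMM factors, DESeq2 1.42.0 size factors, equal weight of cells, only cells with at least 1000 gene rows, thinning to 5000 counts, leaving out the deepest cell or the cell with most counts of the gene, a prior count of 0.25, at least 3 counts to call a cell positive, no count minimum, the deposited labels and, added after seeing the data, leaving out cells with B lineage markers. Python 3.11.15, numpy 2.4.6, pandas 2.3.3, scipy 1.17.1, matplotlib 3.10.9 and R 4.3.3 were used.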

Additional observations from a re-analysis of the deposited data

How the results depend on the processing

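Leaving out the reading by deposited labels, 279 of 360 alternative log2 ratios of the 10 genes stayed within the counting interval of the reported one, and the rest moved beyond it. In 33 of the 360 the sign differed from the reported one, in 21 of these although the reported interval did not hold 0. Between mKO2neg and mKO2low, 7 of the 10 ratios changed sign without the deepest cells, 5 of them with such an interval (Tuba1b, Tubb5, Tubb4b, Tubg1 and Stmn1), as did 5 without the cell with most counts of the gene, 4 with equal weight of cells and 2 with thinned cells. Between mKO2low and mKO2high, Tuba1c and Tubb4b did so with equal weight of cells (-0.31 and 0.16) and with thinned cells (-0.09 and 0.05). With TMM factors, DESeq2 size factors, cells with at least 1000 gene rows, a prior count of 0.25 and without cells with B lineage markers, all 40 ratios of each stayed within it. Of the ratios reported as at least 2-fold, 1 changed sign, that of Tubb2a between mKO2low and mKO2high, at 0.41 with cells thinned to 5000 counts. Read by the deposited labels, Tubb6 had -2.15 for mAG+ against mKO2neg, -0.67 for mKO2low against mKO2high, 0.12 for mKO2neg against mKO2low and -2.69 for mAG+ against mKO2high, and Tuba1a -4.95 for mAG+ against mKO2high. The genes of the 10 at least 2-fold different were then 1 of 10 between mAG+ and mKO2neg and 4 of 10 between mAG+ and mKO2high. With thinned cells they were 0 for mKO2low against mKO2high and 5 for mAG+ against mKO2high, and for mKO2neg against mKO2low they were 2 with equal weight of cells and 3 without the deepest cells. With no count minimum, all genes at least 2-fold different numbered 7076, 7107, 6573 and 8413 for mAG+ against mKO2neg, mKO2low against mKO2high, mKO2neg against mKO2low and mAG+ against mKO2high, where the reported numbers were 4341, 3766, 3645 and 5129. The causes were not tested, except that thinning and a minimum change the counts behind a ratio by construction. Of the alternative list counts 343 of 396 stayed within 1.5 times, and of the isotype shares 37 of 48 stayed within their intervals. Depth limits Tuba1a, Tubb2a, Tubb6 and Tubg1 above all, with 79 counts in all for Tubb2a and 50 for Tubb6. No paired analysis was possible because each gate is 1 sample and the labels give no replicates.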
